A study of Mus musculus with 8 samples.

Results

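The oestrogen receptor gene Esr1, the progesterone receptor gene Pgr and 6 genes that act with or below them were followed across the epithelial cell clusters of the mouse mammary gland and across the stages of a reproductive cycle. The 8 genes were taken by symbol from the 27998 genes of the deposited single-cell matrices, and their UMIs (unique molecular identifiers, 1 per captured transcript) were summed over the cells of 1 mouse and 1 cluster. All mice were C57BL/6N females, 2 for each of 4 stages, and the labels name no engineered allele. Nulliparous mice (NP) were 8 weeks old, gestation (G) was sampled at day 14.5 and lactation (L) at day 6, and post-involution mice (PI) had been left for 11 days once their pups were weaned naturally. No age is given for the G, L and PI mice, so age and parity cannot be told apart between NP and PI. EpCAM-positive cells were sorted, with CD31, CD45 and Ter119 cells excluded, and each mouse gave 1 droplet library. In the study's vaginal smears PI mouse 1 was in diestrus, while PI mouse 2 and both NP mice were in estrus, so in the PI group cycle stage and mouse cannot be told apart.

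Oestrogen and progesterone receptors are nuclear receptors that bind DNA once the steroid is bound. In the mammary gland both are found in a subset of luminal cells, the hormone-sensing cells, which pass the signal on to neighbouring cells through secreted and membrane-bound ligands. Foxa1 is a pioneer factor that opens chromatin for the oestrogen receptor, Gata3 is a luminal transcription factor that acts with it, and Cited1 is a transcriptional co-regulator of the same receptor. Greb1 is a classical oestrogen target in breast cells. Tnfsf11 encodes RANKL, a paracrine mediator of progesterone that acts on the receptor encoded by Tnfrsf11a, and Calca encodes the precursor of calcitonin and of calcitonin gene-related peptide.

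In the GRCm38 annotation Esr1 lies at chr10:4611593-5005614 and Pgr at chr9:8899833-8968611, both on the plus strand. The other genes lie on the minus strand, Foxa1 at chr12:57540628-57546916, Gata3 at chr2:9857078-9890034, Cited1 at chrX:102247381-102252181, Greb1 at chr12:16670615-16800886, Tnfsf11 at chr14:78277445-78308043 and Calca at chr7:114631478-114636357. The 250 bases before the RefSeq start (GRCm38.p6, gene strand) are given for the oestrogen target Greb1 and for both ligands, whose levels rose at gestation. Greb1 has 2 such windows, and the one at the outer start is given, at chr12:16800887-16801136. The Tnfsf11 window is chr14:78308044-78308293 and the Calca window is chr7:114636358-114636607. Capitals mark a match on either strand to AGGTCA, an arm of the oestrogen response element, or to a motif of the Gata3 family, AGATAA.
Greb1: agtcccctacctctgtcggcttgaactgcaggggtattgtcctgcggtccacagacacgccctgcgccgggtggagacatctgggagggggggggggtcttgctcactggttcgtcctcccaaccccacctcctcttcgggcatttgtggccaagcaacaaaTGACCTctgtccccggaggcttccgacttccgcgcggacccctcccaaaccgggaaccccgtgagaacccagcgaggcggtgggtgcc
Tnfsf11: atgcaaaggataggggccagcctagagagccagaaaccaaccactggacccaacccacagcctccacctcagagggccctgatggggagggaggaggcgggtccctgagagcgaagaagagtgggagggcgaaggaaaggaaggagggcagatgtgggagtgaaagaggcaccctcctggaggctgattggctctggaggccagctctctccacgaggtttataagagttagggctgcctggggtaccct
Calca: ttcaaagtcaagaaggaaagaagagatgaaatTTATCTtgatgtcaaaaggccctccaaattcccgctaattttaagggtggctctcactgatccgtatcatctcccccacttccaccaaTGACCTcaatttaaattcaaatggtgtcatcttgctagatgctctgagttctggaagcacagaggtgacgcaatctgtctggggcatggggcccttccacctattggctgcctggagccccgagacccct
The Greb1 match to AGGTCA began 88 bases before the start. In Calca a match to AGGTCA began 130 bases and one to AGATAA 218 bases before the start. AGGTCA was found in 14% and AGATAA in 9.99% of all 32851 RefSeq windows of this length, so both are common. None of the windows of the 8 genes held the full oestrogen response element palindrome (0.0639% of windows), whose arms can overlap AGGTCA, or the progesterone response element palindrome (2.61%). The forkhead motif TGTTTAC (3.17%) was found only in Foxa1 among the 8 genes, 141 bases before its start.

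The libraries held 13785920 to 35711533 UMIs, and 23183 cells of clusters C1 to C15 were matched to them, with a median of 3717.5 to 9705 UMIs per cell by mouse. The study named the clusters by cell type and stage. C1 (PI) and C2 (NP) are hormone-sensing progenitors, C3 (PI), C4 (NP) and C5 (G) differentiated hormone-sensing cells, and C6 (NP) and C7 (PI) luminal progenitors. C8 (G) and C9 (L) are differentiated alveolar cells, and C10 (G) and C11 (L) alveolar progenitors. C12 to C14 have a basal profile and are all called basal here, although the study named C14 (L) myoepithelial cells. C15 is a small cluster that the study named Procr-positive basal cells, without excluding that they are non-epithelial. The 7 hormone-sensing markers (Prlr, Prom1, Ly6a, S100a6, Cxcl15, Tbx3 and Msx2) summed to 9953 to 12210 CPM (UMI counts scaled to the same fixed total in each sum) in the C3 and C4 cells of NP and PI mice. In C5 all 7 were detected and summed to 1728 to 1827 CPM. Other gestation cells had 153 to 178 CPM (differentiated alveolar), 639 to 970 (alveolar progenitors) and 756 to 784 (basal), but lactation basal cells had 6446 to 6645 CPM, so the summed list does not set hormone-sensing cells apart at every stage. Milk protein RNA was present at gestation in the same C5 sums, where the alveolar markers summed to 643 to 1225 CPM with 2 of 6 at 0, compared with 11.0 to 14.1 CPM in NP cells. Of 25806 cell barcodes, 791 carried 1 of 392 sequences found in more than 1 library. Levels below are CPM within 1 mouse and cluster, given for sums of at least 20 cells. For each cluster they are those of the stage with most of its cells, unless another stage is named.

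Esr1, Pgr, Foxa1 and Cited1 had higher mean levels in each of the 5 hormone-sensing clusters than in any of the other 10 epithelial clusters. Because clusters were made from these same counts, differences between clusters are described without a test. In C4, the NP differentiated cells, Esr1 was at 80.3 and 91.0 CPM in mouse 1 and mouse 2, and in the NP progenitors C2 at 64.0 and 70.5 CPM. In C3, the PI cells, it was at 75 and 47.8 CPM, and in the gestation cells C5 at 48.7 and 69.7 CPM. In order of the mean, C4 stood above C2 without overlap of the mice, whereas C2, C3 and C5 overlapped. The PI progenitors C1 were lowest of the 5, at 36.5 and 31.8 CPM. Among the other epithelial clusters the highest mean was that of the PI luminal progenitors C7 (13.9 and 15.2 CPM), followed by NP basal cells C12 (10.6 and 12.8 CPM) and gestation alveolar cells C8 (8.47 and 8.61 CPM). The few PI cells of C12 (27 and 53) stood at 0 and 21.1 CPM, from 0 and 6 UMIs. Outside the epithelial clusters, C18, which carries fibroblast markers, held Esr1 at 31.2 to 65.3 CPM in the 5 mice above the limit of a count of 0, which overlaps C1, C2, C3 and C5.

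Pgr was likewise high in all 5 hormone-sensing clusters. It was at 138 and 203 CPM in C3, 159 and 141 in C4, 114 and 120 in C5, 110 and 105 in C2, and 69.9 and 101 in C1. The mice of C3 and C4 overlapped. The next means were basal, namely lactation C14 (23.8 and 21.7 CPM) and NP C12 (17.6 and 25.2 CPM). The PI cells of C12 stood apart from each other at 8.96 and 52.8 CPM, from 1 and 15 UMIs. In C8 the level was 0.907 and 1.28 CPM. The order of clusters outside the hormone-sensing ones thus differed from that of Esr1, where C7 and C8 stood above lactation basal cells at 3.41 and 2.23 CPM.

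**Figure D1:**
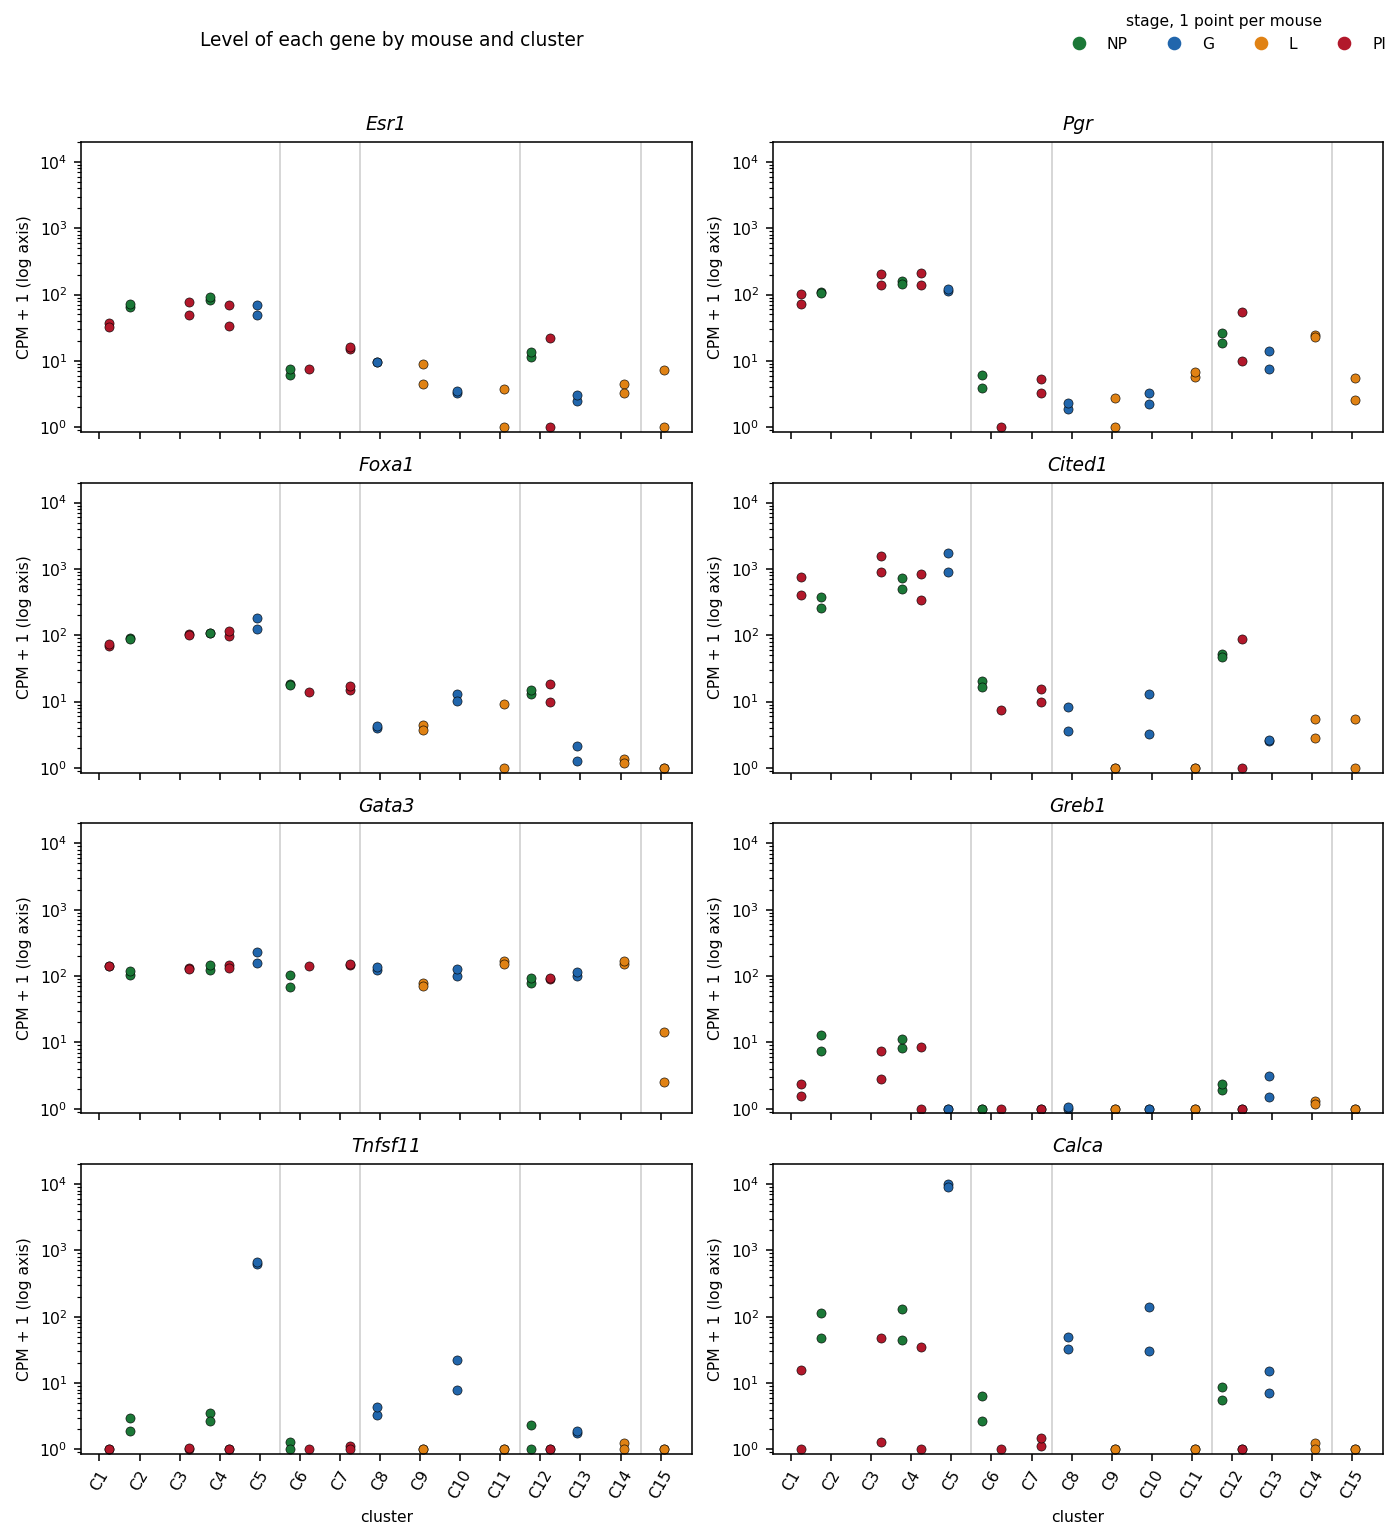
Level of each of the 8 genes in clusters C1 to C15, as CPM plus 1 on a log axis. Each point is the sum over the cells of 1 mouse in 1 cluster (20 or more cells), coloured by stage. Esr1, Pgr, Foxa1 and Cited1 stand high in C1 to C5, Gata3 is broad, and Tnfsf11 and Calca peak in C5, with Calca at 10078 and 9196 CPM.

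Among the partners, Foxa1 was at 179 and 124 CPM in C5, 109 and 106 in C4 and 102 and 100 in C3, and its highest mean elsewhere was 17.0 CPM in C6. Cited1 was at 909 and 1734 CPM in C5, 1550 and 894 in C3 and 729 and 497 in C4, and at most 48.4 CPM on average in the other epithelial clusters, in NP basal cells. In the PI cells of C12 it was at 0 and 88.1 CPM, from 0 and 25 UMIs. Gata3 followed another pattern. It was at 154 and 232 CPM in C5 and 124 and 143 in C4, but also at 150 and 169 CPM in lactation basal cells, 145 and 149 in PI luminal progenitors and 122 and 135 in gestation alveolar cells. The lowest mean of Gata3 was 7.45 CPM, in C15.

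Greb1 was scarce throughout. It was at 6.38 and 12.1 CPM in C2 and 7.10 and 10.2 in C4, at 6.30 and 1.80 in C3 and 0.529 and 1.39 in C1. In C5 no Greb1 UMI was found in 61 cells, which allows up to 7.86 CPM over both mice, so a level like that of NP cells in NP mouse 1 could not have been told from absence. No Greb1 UMI was found in luminal progenitors of either stage.

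Both ligand genes were concentrated in the gestation hormone-sensing cells. Tnfsf11 was at 617 and 677 CPM in C5, from 76 and 175 UMIs. It was at 2.61 and 1.65 CPM in C4, at 0 and 0.0644 in C3, and at 0 in both mice in C1. Calca was at 10078 and 9196 CPM in C5, 131 and 43.4 in C4, 113 and 46.5 in C2, and 0.300 and 47.1 in C3. For Calca, C3 thus held 1 UMI in the 412 cells of PI mouse 1, while PI mouse 2 lay between the NP mice.

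Hormone-sensing cells made up very different shares of the libraries. Of the C1 to C15 cells they were 58.7% and 69.7% at NP, 0.78% and 1.58% at G, 0.0397% and 0.0303% at L, and 39.2% and 71.7% at PI. At NP they held 94.4% to 98.3% of the UMIs of Esr1, Pgr, Foxa1 and Cited1. At gestation the 20 and 41 C5 cells still held 58.0% and 63.9% of Calca UMIs and 51.0% and 61.2% of Tnfsf11 UMIs, compared with 15.1% and 34.4% for Pgr and 2.51% and 8.18% for Esr1. At lactation there were too few hormone-sensing cells to sum (2 and 1), and the 513 and 367 Pgr UMIs of those libraries came nearly all from basal cells, which held 503 and 360 in C14. These are shares of the sorted and captured cells, not of the tissue.

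Genes with a similar pattern were sought by Pearson correlation of log CPM over the same 35 sums of mouse and cluster, among 9761 genes. The sums share mice and depth and the values are a description. Nearest to Esr1 were Gipc2 (r = 0.91) and Tmem56, nearest to Pgr were Hs3st6 (0.946) and Samd5, and nearest to Cited1 were Syt7 (0.971) and Cxcl15. Foxa1 had Snhg11 (0.907) and Prom1, with the prolactin receptor gene Prlr among its 5 nearest genes (0.903). Gata3 had the epithelial genes Ripk4 (0.894) and Klc3 nearest, with Esrp1 and Cd24a next. Tnfsf11 had Pnmt (0.972) and Hsd11b2 (0.919), the latter an enzyme that inactivates glucocorticoids, and Calca had Defb45 (0.833). Esr1 and Pgr correlated with each other at 0.724, and Calca and Tnfsf11 at 0.863. Greb1 was too low to be compared.

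The first comparison between stages asked how gestation cells differed from nulliparous ones within the differentiated hormone-sensing class (C5 against C3 and C4 cells of the NP mice). The ligand genes rose most. Calca went from 134 and 46.6 CPM at NP to 10078 and 9196 at G, a log2 fold change of 6.51 ± 0.26 (SE, n = 2 mice per stage, edgeR quasi-likelihood test, adjusted p = 2.73e-137). Tnfsf11 went from 2.58 and 1.65 to 617 and 677 CPM (8.03 ± 0.24, edgeR adjusted p = 5.05e-240). The G mice stood above both NP mice by a wide margin for both genes, and both calls held in 9 of 9 alternative analyses. The spread was estimated as equal for all genes in this fit, so the size of these p-values rests on that estimate rather than on 2 mice alone.

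Cited1 rose from 728 and 498 to 909 and 1734 CPM (log2 fold change 0.92 ± 0.19, edgeR adjusted p = 1.47e-05), without overlap, but G mouse 1 stood close to NP mouse 1. The call was lost without G mouse 2 (0.30, edgeR adjusted p = 0.637). Greb1 passed the test as well (edgeR adjusted p = 0.0483), with 0 UMIs against 239, and the call held in only 2 of 7 alternatives. The level pooled over both NP mice (8.75 CPM) was 1.11 times the limit of a count of 0 at G (7.86 CPM). NP mouse 1, at 7.13 CPM, lay under that limit.

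Neither receptor passed. Esr1 was at 80.4 and 90.8 CPM at NP and 48.7 and 69.7 at G, from 6 and 18 UMIs (−0.70 ± 0.31, edgeR adjusted p = 0.106), and Pgr at 158 and 142 against 114 and 120 (−0.59 ± 0.25, 0.0896). The G mice were below the NP mice for both genes, in a comparison where the stages overlapped for none of the 8 genes, called or not. The share of all tested genes without overlap is not given, so lack of overlap is not read as a result in any comparison. Foxa1 (0.17 ± 0.25) and Gata3 (0.36 ± 0.22) did not pass either. In all, 4 of the 8 genes were called, where 18.6% of 10978 genes tested were called in this comparison, and the median log2 fold change over all of those was −0.20. The 3 luminal keratins fell in the same sums (7749 to 7830 CPM against 14450 to 18680), as did 4 of the 7 hormone-sensing markers, and all 4 milk protein genes tested rose. Their part in these values was not tested.

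**Figure D2:**
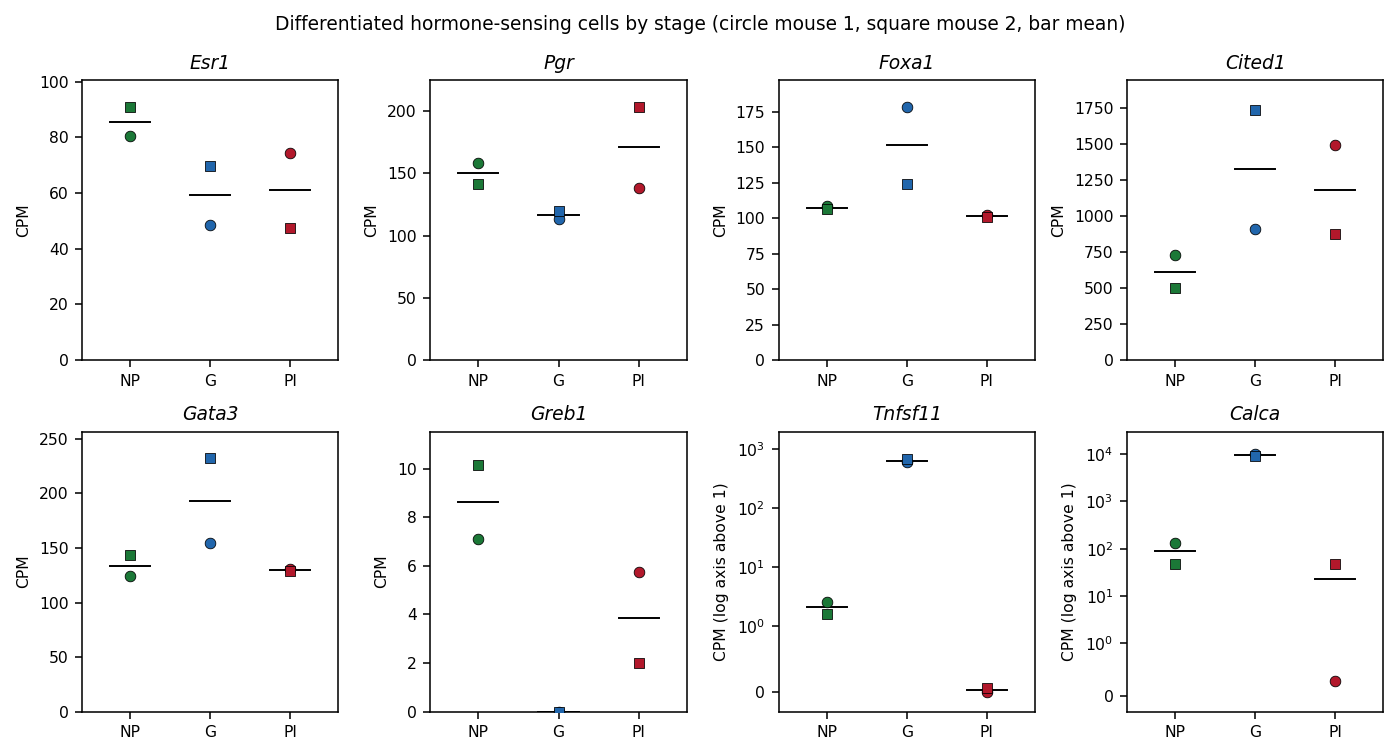
CPM of the 8 genes in differentiated hormone-sensing cells at NP, G and PI, with circles for mouse 1, squares for mouse 2 and a bar at the mean. Tnfsf11 and Calca are drawn on a log axis. The G mice lie far above the others for Calca and Tnfsf11, and the PI mice lie apart from each other for Calca.

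Of the 21 listed receptor target genes, 16 were tested and 3 rose and 6 fell at gestation. Areg, which encodes amphiregulin, an oestrogen-induced growth factor, fell from 3218 and 3474 to 820 and 1742 CPM (log2 fold change −1.58 ± 0.21, edgeR adjusted p = 1.07e-12). Stc2 fell from 137 and 142 CPM to 0 and 3.87, and Tgm2 from 300.2 and 298 to 32.5 and 34.8 (−3.38). Fkbp5, a steroid-responsive chaperone gene, rose from 3.68 and 5.84 to 105 and 147 CPM (4.53 ± 0.36), and Igfbp5, a binding protein of insulin-like growth factors, rose from 22 and 9.89 to 714 and 681 (5.22). Wnt4, a paracrine mediator of progesterone, rose from 114 and 133 to 292 and 259 CPM (0.89 ± 0.21, edgeR adjusted p = 0.000318), and Wnt5a fell from 105 and 103 to 8.11 and 15.5 (−3.23). A count of 0 allows up to 24.3 and 11.6 CPM in these G sums. Stc2 lay under that limit in both G mice and Wnt5a in G mouse 1, so the sizes of these falls are uncertain. Of 28 receptor partner genes, 26 were tested and 4 rose and 2 fell. Prlr, also used to mark these cells, fell from 2276 and 2227 to 811 and 1061 CPM (−1.49). Of 6 paracrine receptor genes tested, 2 rose. One was Tnfrsf11b, which encodes the RANKL decoy receptor, at 5.18 ± 0.98, from 4 UMIs in each G mouse.

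In single C5 cells both ligand genes were widely shared. Every one of the 61 cells held Calca UMIs, at least 2 in mouse 1 and 4 in mouse 2, with medians of 54 and 45 and highest values of 196 and 190. Tnfsf11 was found in 85% of cells of mouse 1 (exact 95% interval 62.1% to 96.8%) and 85.4% of mouse 2 (70.8% to 94.4%), at medians of 3 and 4 UMIs. Pgr was found in 50% and 48.8% of the cells. Of the 10 and 21 cells without a Pgr UMI, 8 and 17 held a Tnfsf11 UMI, at a median depth of 6224 and 5514 UMIs per C5 cell.

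**Figure D3:**
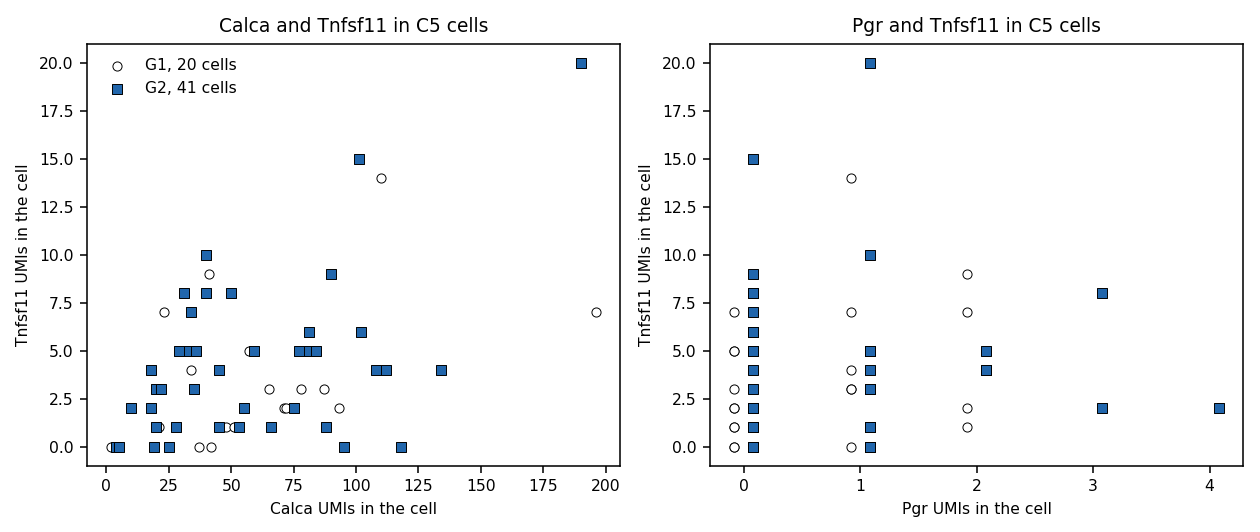
UMIs of Calca against Tnfsf11, and of Pgr against Tnfsf11, in each of the 61 gestation hormone-sensing cells. Each point is 1 cell, coloured by mouse. Calca is above 0 in every cell, and Tnfsf11 UMIs are found in cells with and without a Pgr UMI.

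Low counts of both ligand genes appeared in the other gestation clusters. In C8 alveolar cells Calca was at 31.6 and 48.3 CPM, which is 0.314% and 0.525% of its C5 level, and 2.70% and 4.02% of those cells held a Calca UMI. The number of Calca UMIs per Tnfsf11 UMI was 16.3 and 13.6 in C5 and 13.7 and 14.5 in C8, but 4.33 and 6.5 in the alveolar progenitors C10, where Tnfsf11 was at 6.89 and 21.2 CPM. The part of free RNA in these values was not tested.

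The receptors of these ligands were read in the neighbouring cells. Tnfrsf11a, the RANK gene, rose in basal cells from NP (15 and 18.7 CPM) to G (34.5 and 35.5 CPM) with a log2 fold change of 1.18 ± 0.20 (edgeR adjusted p = 0.000188). It rose again from G basal cells to L ones, nearly all of them named myoepithelial by the study, to 66.2 and 67.5 CPM (1.03 ± 0.13, 0.00047). It also rose from G to L in differentiated alveolar cells (1.62 ± 0.37) and in alveolar progenitors (1.98 ± 0.33), the latter from 6.89 and 7.49 to 23.0 and 24.2 CPM. The 5 basal markers all rose in the same sums, from 130 to 138 CPM at G to 975 to 2244 at L in differentiated alveolar cells and from 169 to 236 to 3838 to 5201 in alveolar progenitors. Their part in these values was not tested. In basal cells Ramp1, which encodes a co-receptor of calcitonin gene-related peptide, rose from 14.3 and 23.7 CPM at NP to 40.1 and 48.5 at G (1.38 ± 0.22, edgeR adjusted p = 0.000125). Calcr, the calcitonin receptor gene, was at 0 in every sum except that of basal cells in L mouse 1 (1 UMI). Of 11 paracrine receptor genes tested between NP and G basal cells 7 rose and 1 fell, where 46.2% of 11084 genes were called.

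The second comparison asked what differed in the same class after a pregnancy had been completed (C3 and C4 cells, PI against NP). It shares its NP mice with the gestation comparison. The receptors did not pass. Esr1 was at 74.5 and 47.3 CPM at PI, both below NP (−0.59 ± 0.19, edgeR adjusted p = 0.0572), and Pgr at 138 and 203 CPM, on either side of NP (0.15 ± 0.20, 0.671). Foxa1 (−0.14 ± 0.14) and Gata3 (−0.11 ± 0.16) did not pass. Esr1 was called lower in 6 of 11 alternatives. Without PI mouse 1 the value was −0.85 (edgeR adjusted p = 0.000822), and without PI mouse 2 it was not called (−0.32).

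Of the 8 genes, 3 were called, in a comparison where 14.3% of 11994 genes tested were called. Tnfsf11 fell from 33 and 24 UMIs at NP to 0 and 1 at PI (−5.13 ± 0.79, edgeR adjusted p = 0.00162). From these counts the NP level was 41.1 times that of PI, with a counting interval of 7.09 to 1650, and the call held in 11 of 11 alternatives. Greb1 fell from 7.13 and 10.2 to 5.75 and 1.99 CPM (−1.58 ± 0.39, edgeR adjusted p = 0.0192), mainly through PI mouse 2, without which it was −0.71 (0.142). Cited1 rose from 728 and 498 to 1488 and 876 CPM (0.88 ± 0.24, edgeR adjusted p = 0.0323), and without PI mouse 1 the value was 0.53 (0.10). Neither gene overlapped between the stages, and nor did Esr1 and Foxa1, which were not called, so this separation is not read as a result.

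The PI mice were far apart for Calca. It was at 0.274 CPM in PI mouse 1 and 46.6 in PI mouse 2, the latter level with NP mouse 2 at 46.6 and below NP mouse 1 at 134. The difference did not pass (−1.69 ± 0.74, edgeR adjusted p = 0.149), though 7 of 11 alternatives called it lower. Fits without PI mouse 1 (−0.93) and without PI mouse 2 (−8.39) were far apart.

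Of 17 receptor target genes tested, 3 rose and 2 fell. Areg fell to 1034 and 1624 CPM (−1.38 ± 0.26, edgeR adjusted p = 0.00552) and Wnt4 to 89.6 and 87.1 CPM (−0.54 ± 0.16, 0.0413). The cyclin D1 gene Ccnd1 rose from 49.5 and 58.1 to 93.1 and 118 CPM (0.92 ± 0.18) and Stc2 from 137 and 142 to 218 and 267 (0.75 ± 0.17). Ltf, the lactoferrin gene, rose from 8.93 and 5.57 to 32.3 and 16.8 CPM (1.61 ± 0.28). Of 26 receptor partner genes tested, 2 rose and 1 fell. The hormone-sensing markers summed to 12030 to 12210 CPM at PI and 9953 to 11470 at NP, and alveolar markers to 69.3 to 79.7 against 11.0 to 14.1 CPM.

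In the hormone-sensing progenitors (C1 and C2) both stages were compared in the same way, and 4 of 7 genes tested were called, against 16.6% of 10692 genes. Esr1 fell from 63.9 and 70.5 CPM at NP to 37.9 and 31.9 at PI (−0.98 ± 0.16, edgeR adjusted p = 0.00137), a call that held in 9 of 9 alternatives. Greb1 fell from 6.37 and 12.1 to 0.513 and 1.39 CPM (−2.95 ± 0.55, 0.00349). Calca fell from 113 and 46.5 to 0 and 14.9 CPM (−3.01 ± 0.54, 0.00293), with the same order of the PI mice as in the differentiated cells. The Greb1 call held in 8 of 9 alternatives and the Calca call in 7 of 9, with log2 values for Calca from −11.18 to −2.31. All NP values stood above all PI values for Esr1, Greb1 and Calca. The stages did not overlap for Pgr, Foxa1 and Gata3 either, which were not called, so here too the separation is not read as a result.

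Cited1 rose from 376 and 258 to 772 and 402 CPM in these progenitors (0.86 ± 0.25, edgeR adjusted p = 0.0329, called in 5 of 9 alternatives). Pgr was at 110 and 105 CPM at NP and 72.3 and 102 at PI and did not pass (−0.29 ± 0.16), nor did Foxa1 (−0.31 ± 0.13) or Gata3 (0.34 ± 0.14). Tnfsf11 had too few UMIs to be tested, 10 and 3 at NP and 0 at PI. Its level pooled over both NP mice (1.5 CPM) was 3.51 times the limit of a count of 0 at PI (0.429 CPM). NP mouse 2 alone stood at 0.867 CPM. Areg fell here too (−1.72 ± 0.22), and of 18 receptor target genes tested 6 rose and 2 fell. Alveolar markers summed to 6366 to 6877 CPM in the PI progenitors and 196 to 335 in the NP ones, and their part in these values was not tested.

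In luminal progenitors (C6 and C7) Esr1 changed in the opposite direction. It rose from 5.13 and 6.62 CPM at NP to 13.8 and 15.1 at PI (1.4 ± 0.26, edgeR adjusted p = 0.00276), from 17 and 16 UMIs to 104 and 121. Gata3 rose from 67.6 and 103 to 145 and 149 CPM (0.88 ± 0.18, 0.00437). These were 2 of 5 genes tested, in a comparison where 26.9% of 10766 genes were called. Pgr was at 5.13 and 2.90 CPM at NP and 2.25 and 4.24 at PI (−0.26 ± 0.45), Foxa1 at 17.5 and 16.6 against 13.9 and 16.6 (−0.08 ± 0.20), and Cited1 at 19.3 and 16.1 against 14.6 and 8.73 (−0.54 ± 0.26). None of these 3 passed. Hormone-sensing markers in the same sums were lower at PI, at 1152 to 1393 against 4218 to 4327 CPM. Alveolar markers were higher, at 12770 to 13690 against 764 to 1441 CPM, with all 5 tested called. The part of both in these values was not tested. Areg fell from 154 and 168 to 21.2 and 29.0 CPM (−2.59 ± 0.17).

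**Figure D4:**
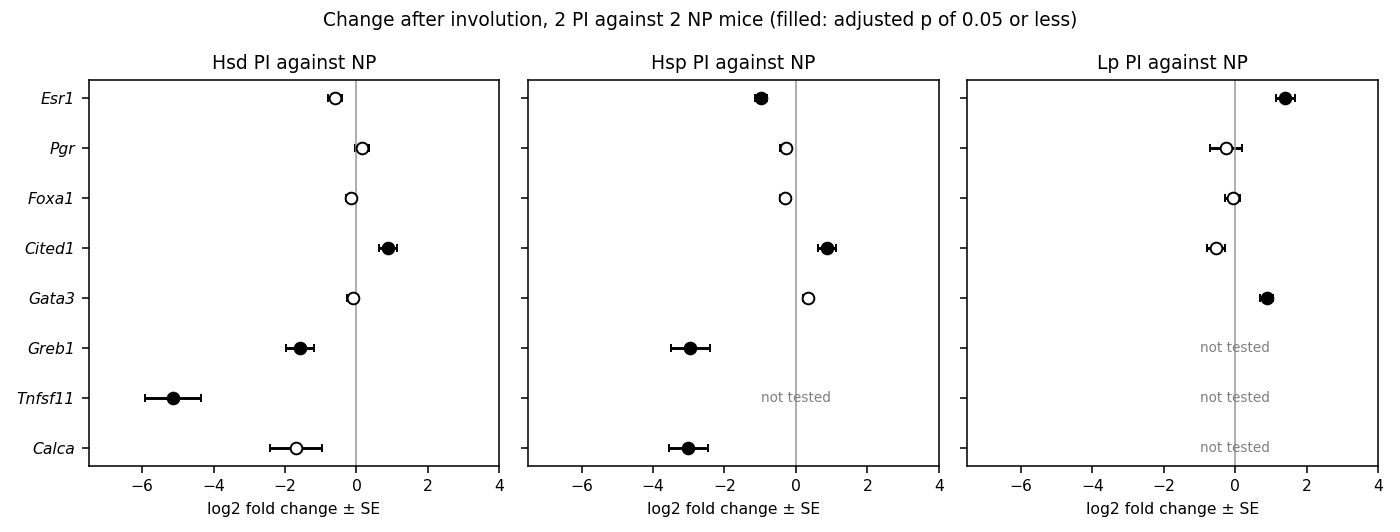
Log2 fold change between PI and NP (edgeR, bar is 1 SE, 2 mice per stage) in differentiated hormone-sensing cells (Hsd), hormone-sensing progenitors (Hsp) and luminal progenitors (Lp). Filled points passed an adjusted p of 0.05, and genes with too few UMIs are marked as not tested. Esr1 lies below 0 in both hormone-sensing classes and at 1.4 in luminal progenitors.

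Whether the change between NP and PI differed between cell classes was tested in 1 fit over the 12 sums of 4 mice and 3 classes, with mouse as a term. For Esr1 the change in luminal progenitors exceeded that in differentiated hormone-sensing cells by 1.99 ± 0.28 on the log2 scale (edgeR adjusted p = 2.65e-05), and for Gata3 by 0.98 ± 0.14 (3.96e-05). For Cited1 it was lower, by −1.42 ± 0.20 (2.78e-05). These were 3 of 6 genes compared, Greb1 having no UMI in luminal progenitors, where 20.2% of 11743 genes were called. Between progenitor and differentiated hormone-sensing cells only Calca passed, among 7 genes (−1.53 ± 0.25, edgeR adjusted p = 0.00063), against 3.82% of all genes. PI mouse 1 held 0 Calca UMIs in the progenitors and 1 in the differentiated cells. The PI side of this difference thus rests nearly wholly on PI mouse 2, at 14.9 and 46.6 CPM. Without the mouse term the Esr1 and Gata3 calls held, while those for Cited1 (adjusted p = 0.0827) and Calca (0.788) were lost.

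In basal cells (C12 and C13) Esr1, Pgr, Foxa1 and Cited1 all fell at gestation. From NP to G, Cited1 fell from 51.0 and 46.0 to 1.51 and 1.57 CPM (−4.86 ± 0.28, edgeR adjusted p = 1.99e-09), Foxa1 from 12 and 13.7 to 0.252 and 1.12 (−4.01 ± 0.49), and Esr1 from 10.6 and 12.7 to 1.51 and 2.02 (−2.58 ± 0.39). Pgr fell least of the 4, from 17.6 and 25.5 to 13.1 and 6.51 CPM (−1.02 ± 0.31, 0.0131), and that call was lost in 2 of 7 alternatives. Gata3 rose from 78.7 and 93.3 to 100.3 and 115 CPM (0.43 ± 0.14, 0.023), called in 4 of 7 alternatives. In all, 5 of 6 genes tested were called, where 46.2% of all genes were. Of 6 steroid handling genes tested 4 rose and none fell. In the same sums all 7 hormone-sensing markers fell, from 2544 to 2877 CPM in total at NP to 756 to 784 at G, and the 3 luminal keratins fell from 2804 to 4289 to 856 to 883 CPM. Other lists rose, with alveolar markers going from 51.0 to 76.2 CPM at NP to 688 to 1255 at G, fibroblast markers from 175 to 263 to 669 to 881, and 8 of 11 stress genes called. The 3 immune markers tested and 2 of 3 pericyte markers also rose. The part of these lists in the values was not tested, nor was that of free RNA. Hormone-sensing cells were 58.7% and 69.7% of the C1 to C15 cells at NP and 0.78% and 1.58% at G.

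From gestation to lactation Pgr rose in basal cells, from 13.1 and 6.63 to 23.8 and 21.7 CPM (1.33 ± 0.26, edgeR adjusted p = 0.00376), a call that held in 7 of 7 alternatives. The G cells of this comparison were nearly all from C13 and the L cells from C14, which the study named myoepithelial. Stage and named cell type thus cannot be told apart in it. Gata3 rose from 100.1 and 115 to 150 and 169 CPM (0.68 ± 0.13, 0.00322), and Calca fell from 6.05 and 14.4 to 0.237 and 0 (−6.08 ± 0.73, 0.000332). These were 3 of 5 genes tested, where 48.2% of 12708 genes were called. The G and L mice did not overlap for any of the 3, nor for Esr1 and Cited1, which were not called. Lack of overlap is therefore not read as a result. The 11 dissociation stress genes also all rose, and summed to 22900 to 28610 CPM at L and 4567 to 7245 at G. All 5 basal markers rose, the hormone-sensing list went from 759 to 772 CPM at G to 6446 to 6645 at L (2 of 5 tested rose and 1 fell), and the luminal keratins from 852 to 855 to 1396 to 2113. Their part in these values was not tested, nor was that of free RNA in the Calca values. Pgr UMIs per Prlr UMI numbered 0.0889 and 0.114 in NP, 7.43 and 1.26 in gestation and 19.3 and 25.7 in lactation basal cells, and 0.0696 and 0.0635 in NP hormone-sensing cells.

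In alveolar cells Calca was the only one of the 8 genes called between G and L in the differentiated class, among 7 tested and with 18.7% of 11860 genes called. It was at 31.6 and 48.3 CPM at G and had no UMI at L. The level pooled over both G mice (39.2 CPM) was 17.3 times the limit of a count of 0 at L (2.27 CPM). In alveolar progenitors (28% of 8446 genes called, 2 of 4 genes tested) Calca was at 29.8 and 138 CPM at G and had no UMI at L. In these cells the pooled G level (89.3 CPM) was 59.5 times the limit at L (1.5 CPM). Gata3 rose there from 99.5 and 125 to 170.2 and 147 CPM (0.78 ± 0.18, edgeR adjusted p = 0.00988). In the same sums the basal markers rose as given above for Tnfrsf11a, and stress genes from 9830 to 11840 to 16900 to 23200 CPM (10 of 11 called), while lactation basal cells held Gata3 at 150 and 169 CPM. Their part in the Gata3 value was not tested. Nor was the part of free RNA in the Calca values, where the lactation libraries held only 2 and 1 hormone-sensing cells. The lactation sums held 43 and 48 differentiated cells and 145 and 91 progenitors, which limits what could be seen for the rarer transcripts.

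Co-detection of Esr1 and Pgr was read cell by cell in the hormone-sensing clusters. In C4, 46.8% of 971 cells of NP mouse 1 held UMIs of both receptors (exact 95% interval 43.6% to 50%), 9.89% of Esr1 only, 27.5% of Pgr only and 15.9% of neither. In NP mouse 2 both were found in 43.6% of 1212 cells (40.8% to 46.5%). In C3 the share with both was 26.7% of 412 cells in PI mouse 1 and 17.3% of 2487 cells in PI mouse 2. In C2 it was 45.7% and 52.1%, and in C1 28% and 20.8%. In NP luminal progenitors, which serve as background, Esr1 was found in 4.57% and 4.75% and Pgr in 4.03% and 2.22% of cells.

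These shares moved with depth, since cells with both receptors in C4 had medians of 13201 and 11975 UMIs and cells with neither 8269 and 8790. Thinned to 2000 UMIs per cell, which left out no cell, both receptors were found in 4.01% and 3.93% of C4 cells and 3.26% and 3.29% of C3 cells, so the gap between these differentiated clusters narrowed. Among the progenitors both were found in 2.25% and 2.97% of C2 cells and 0.903% and 1.07% of C1 cells, so NP still stood well above PI. Esr1 alone was then in 14.1% and 16.5% of C4 cells and 13.9% and 9.42% of C3 cells, and Pgr in 25.3% and 22.8% against 22.5% and 32.4%. If both genes had been detected independently, 3.58% and 3.76% of C4 cells and 3.12% and 3.05% of C3 cells would have held both.

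The odds ratio of holding Pgr given Esr1 was 2.73 and 1.67 in C4 and 1.72 and 1.28 in C3 over all cells. Within 10 strata of depth it was 1.76 and 1.21 in C4, 1.37 and 1.09 in C3, 1.14 and 1.04 in C1, and on either side of 1 in C2 (0.827 and 1.57). The mean difference between C4 and C3 was 0.255, and the exact two-sided permutation test over mice gave p = 0.667, where 2 mice against 2 cannot go below 0.333. Within strata the ratio was above 1 in 7 of these 8 sums. In C5 both were found in 4 of 20 and 4 of 41 cells, too few for strata.

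**Figure D5:**
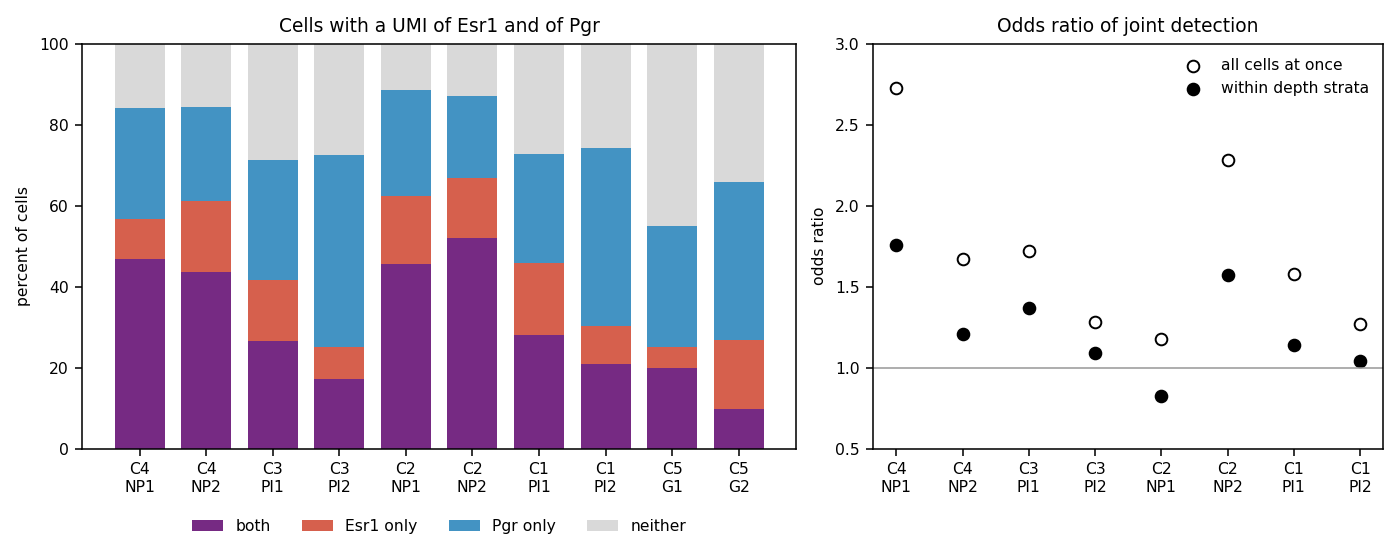
Left, share of cells of each hormone-sensing cluster and mouse with UMIs of both receptors, of Esr1 only, of Pgr only and of neither, in percent. Right, odds ratio of co-detection over all cells and within 10 depth strata, where 1 is no association. The ratios are nearer to 1 within strata, as for NP mouse 1 in C4 (2.73 and 1.76).

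Cells with and without a Pgr UMI were then compared for the other genes, with Pgr left out of the total. In C4, Esr1 was at 85.5 CPM in cells with Pgr and 56.6 in cells without in NP mouse 1, and at 94.5 and 81.7 in NP mouse 2. In C3 it was at 79.5 and 67.1 in PI mouse 1 and 49.3 and 44.6 in PI mouse 2. In C4 and C3 the level was thus higher with Pgr in all 4 mice, by a ratio of 1.16 to 1.51 in NP. Elsewhere the ratio was 0.97 and 1.91 in C2, 1.4 and 1.18 in C1, and 5.22 and 0.658 in C5. The C5 ratios rest on 6 and 18 Esr1 UMIs. Greb1 was at 7.52 against 5.22 CPM and 12 against 5.34 CPM in the NP mice, at 7.58 against 4.09 in PI mouse 1 and in the other direction, 1.48 against 2.53, in PI mouse 2. Cited1 in C4 was nearly equal in both sets, at 719 and 776 in mouse 1 and 491 and 511 in mouse 2, as was Calca at 130 against 134 and 42.9 against 44.8 CPM.

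Calca was more unevenly spread among NP cells than the receptors. In C4, 28% and 15.1% of cells held a Calca UMI, and the 5% of cells with most held 63.4% and 77.8% of all Calca UMIs, against 23.2% and 20.5% for Esr1 and 21.3% and 22.7% for Pgr. In C3 the share of cells with Calca was 0.243% in PI mouse 1 and 9.65% in PI mouse 2.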

How the data were processed

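The deposited values are UMI counts for every gene in each cell. Cell Ranger was run by the authors, with STAR and mm10 named in the submitters' processing notes, and libraries were not normalised to each other. The authors' annotation table gave the library, cluster and quality flags of each cell, and, as a fraction, how much of its UMIs was mitochondrial. The 8 genes and the other gene lists were chosen with earlier results of these data known. Cells that had passed the authors' quality filters were kept, and the counts of clusters C1 to C15 were summed by mouse and cluster or class, with at least 20 cells per sum. Doublets had been gated out in the sort and doublet clusters removed by the authors, and no doublet caller was run here. Levels are CPM. Stages were compared by edgeR 4.0.16 in R 4.3.3 (quasi-likelihood F-test, TMM, genes filtered by expression), with Benjamini-Hochberg adjustment over all genes tested and a threshold of 0.05. Mice are the replicates (2 per stage). Alternatives were DESeq2 1.42.0, no filter, a replicate block, each mouse left out, 1 main cluster per stage, equal cell numbers, a minimum fold of 2, a spread shared over 6 mice and, for the interaction, no mouse term. The tallies of alternatives given beside single genes leave out the minimum fold of 2. Of the listed genes that are not among the 8, those with the largest changes past the test and at least 20 CPM in 1 group were named, at most 3 in each direction, with Areg, Wnt4, Prlr and the ligand receptors. Intervals are exact 95% intervals and, like the limit of 3 counts behind a count of 0, cover counting error only. Thinning to a fixed UMI number used exact detection probabilities. In data simulated from these means, 36.5% to 93.8% of genes changed 4-fold were recovered over the comparisons, and 1.41% to 8.18% of calls were false. The gestation hormone-sensing comparison had 36.5% recovered and 8.16% false. Every simulated gene had the same spread between mice (dispersion 0.05), so these are not error rates of the calls reported here. Promoter windows came from RefSeq.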

Additional observations from a re-analysis of the deposited data

Results flagged for a closer look

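By an interaction test, the step from NP to PI was unequal between cell classes for 3 of 6 genes compared (luminal progenitors, 20.2% of all genes) and 1 of 7 (hormone-sensing progenitors, 3.82%). Against differentiated hormone-sensing cells, luminal progenitors changed by 1.99 more for Esr1, 0.98 more for Gata3 and −1.42 for Cited1 on the log2 scale. Hormone-sensing progenitors changed by −1.53 for Calca relative to differentiated ones, with the PI side resting nearly wholly on PI mouse 2. Without the mouse term the Cited1 and Calca calls were lost (edgeR adjusted p = 0.0827 and 0.788).

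Outside the epithelial clusters, C18, in which 5 of 5 fibroblast markers were present, held signal of the same genes above the limit that a count of 0 allows. Esr1 was at 31.2 CPM in NP mouse 2, 31.7 in G mouse 1, 47.3 and 56.4 in the L mice and 65.3 in PI mouse 2. Pgr was at 16.6 CPM in L mouse 1. Cited1 was at 28.9 and 15.6 CPM in the NP mice, and in L mouse 1 Gata3 was at 4.73 and Greb1 at 13.4 CPM. None of these cells entered a comparison.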

How the results depend on the processing

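Over the alternatives that kept all mice, 232 of 263 fold changes of the 8 genes kept their direction and their side of the threshold, 18 lost the call, 13 gained it and none changed sign. With 1 mouse left out (the lone mouse being assumed to vary like the others), 147 of 186 kept both. Sign changes were confined to changes that had not been called. The log2 values with 1 mouse left out ran from −0.23 to 0.0497 for Gata3 and −0.24 to 0.45 for Pgr in differentiated hormone-sensing cells (PI against NP), and from −0.0755 to 0.53 for Gata3 and −0.0574 to 0.46 for Foxa1 at gestation. In luminal progenitors they ran from −0.78 to 0.23 for Pgr and −0.22 to 0.056 for Foxa1, and in basal cells (G against NP) from −0.0026 to 1.21 for Calca. From G to L they ran in alveolar cells from −0.48 to 0.85 for Esr1 and −7.14 to 1.49 for Pgr, and in alveolar progenitors from −6.19 to 4.22 for Cited1. The causes were not tested.

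The number of genes called moved more. With 1 mouse left out it ran from 928 to 2458 for PI against NP in differentiated hormone-sensing cells (1714 with all mice), 476 to 1960 in hormone-sensing progenitors (1778) and 1704 to 2472 in luminal progenitors (2892). It ran from 808 to 1580 for gestation hormone-sensing cells (2047), 3412 to 5079 for gestation basal cells (5124) and 609 to 1890 for differentiated alveolar cells (2219). With a minimum fold of 2 the PI comparisons called 121 and 127 genes in the 2 hormone-sensing classes, a stricter test by construction. DESeq2 called 823 genes in hormone-sensing progenitors, 1590 in luminal progenitors, 3091 in gestation basal cells and 1144 in alveolar progenitors (2368 by edgeR). Without the mouse term the interaction called 111 instead of 449 genes and 1159 instead of 2375.

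Same-numbered mice deviated from their group means with correlations from −0.112 to 0.224 over the 8 comparisons, so the numbers were not taken as pairs. With a replicate block 2058 genes were called for PI against NP and 1628 for G against NP in differentiated hormone-sensing cells. In the former Calca (−2) and Esr1 (−0.60) were then called lower. With the numbers crossed, an alternative added after the data were seen, 1460 genes were called.

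The share of cells with both receptors depended on depth. At 5000 UMIs it was 16.9% in C4, 13.4% in C3, 11.6% in C2, 5.15% in C1 and 11.7% in C5, and without thinning 45.2%, 22%, 48.9%, 24.4% and 14.9%. Thinning to 5000 UMIs left out 72 of 412 and 878 of 2487 C3 cells, and 13 of 41 C5 cells of G mouse 2. In C4 it left out only 11 and 39 cells, so the shares at 5000 UMIs come from unlike subsets of cells. Without depth strata the mean odds ratio was 2.20 in C4, 1.5 in C3, 1.73 in C2 and 1.43 in C1. With milk protein genes left out of the totals, C8 and C9 levels were 9.25 and 10.1 CPM for Esr1, 3.41 and 5.47 for Foxa1 and 139 and 130 for Gata3. With at least 50 cells per sum C5 and C9 gave no value. Depth limits Greb1 and Tnfsf11 in small clusters.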
